A study of Mus musculus with 2 samples.

Results

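The Kit and Flt3 receptor genes, their relatives Csf1r, Pdgfra and Pdgfrb, and the ligand genes Kitl and Flt3l were examined in total RNA from mouse hematopoietic stem cells. These 7 genes were chosen by name, out of 43346 mouse genes in the deposited tables. Both libraries came from pools of 100 cells of adult male C57BL/6J mice aged 5 to 6 weeks, with no treatment or genetic change given, and the labels call them biological replicates 1 and 2 of a single group. Both carry the same donor identifier, and nothing used here says that the pools came from separate animals, so SDs here may hold technical as well as animal-to-animal variation. The labels do not say by which surface markers the cells were sorted. With 1 group and 2 libraries there was no comparison between conditions, and a two-sided exact test over 2 libraries cannot give a p under 0.5, so levels are given per library and as mean ± SD (n = 2).

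Class III receptor tyrosine kinases share an outer part of immunoglobulin-like domains, a single membrane span and a kinase domain that is split by an insert. A ligand that binds as a dimer brings the receptor chains together, and the kinases then phosphorylate each other and recruit adaptors of the Ras, phosphatidylinositol 3-kinase and phospholipase C routes. In bone marrow, Kit with its ligand (stem cell factor, made by stromal and endothelial cells) sustains stem and progenitor cells and mast cells, Flt3 with Flt3 ligand supports lymphoid-primed progenitors and dendritic cells, Csf1r drives monocytes and macrophages, and the Pdgf receptors mark mesenchymal cells and pericytes.

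Levels are in TPM (transcript abundance per length, scaled to the same total in every library), from deposited expected counts that summed to 48313341 in replicate 1 and 28947093 in replicate 2. Detection required at least 1 TPM and at least 10 expected counts. Nuclear protein coding genes held 30.03% of TPM in replicate 1 and 26.5% in replicate 2. The label of the cells was checked against 9 stem cell markers, of which 7 were detected in both libraries, among them Hlf (129.8 ± 45.1 TPM) and Meis1 (73.5 ± 18.7 TPM). Slamf1 (2.87 and 0.36 TPM in replicates 1 and 2) and Hoxb5 (0 and 0.16 TPM) were not. Over all nuclear protein coding genes 45.5% were detected in both libraries. Erythroid markers were detected throughout (7 of 7, summed level 1986 and 1720.4 TPM), and all 6 mature neutrophil markers were detected in replicate 2 and none in replicate 1 (summed level 0.50 and 315 TPM in replicates 1 and 2). Ngp, S100a9 and S100a8 led the neutrophil list, and Car1, Hba-a2 and Hba-a1 the erythroid list.

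Of the 6 members whose symbol matched a deposited gene, 4 were detected in both libraries, namely Kit, Flt3, Pdgfrb and Csf1r. The share detected in both libraries was 24.7% over all genes and 45.5% over nuclear protein coding genes. Pdgfra and Kitl had no count in either library. The symbol Flt3l matched no gene of the tables, for a reason given with the ligands.

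**Figure D1:**
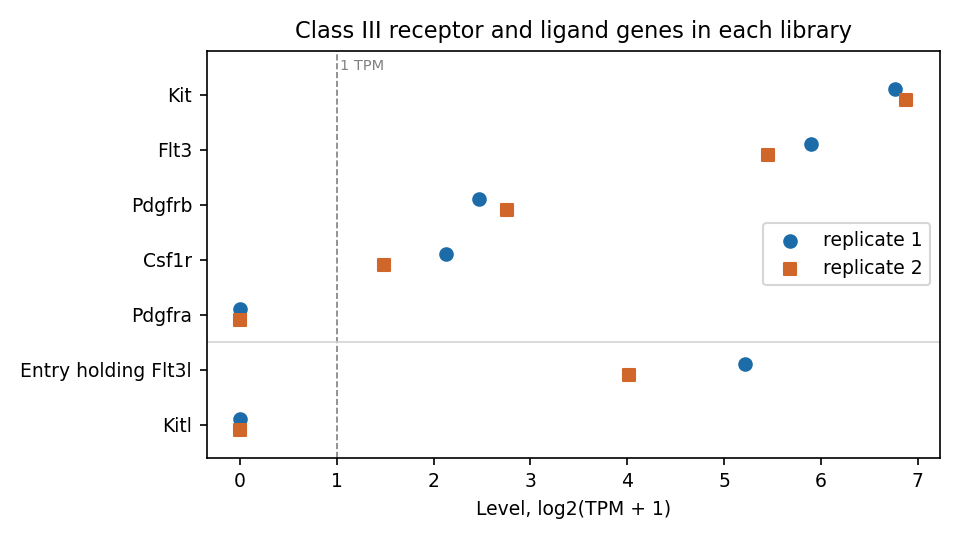
Level of each member on the log2(TPM + 1) axis, 1 point per library (circles replicate 1, squares replicate 2), with receptors above the grey line, ligands below it and a dashed line at 1 TPM. For Flt3l the points show the whole entry that holds Flt3l-201, which is not a level of the ligand. Kit lies highest at 108 and 117 TPM, Flt3 follows at 58.6 and 42.9 TPM, and Pdgfra and Kitl lie at 0 in both libraries.

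Kit (ENSMUSG00000005672, chr5:75574916-75656722, plus strand, GRCm38), the receptor for stem cell factor, stood at 108 and 117 TPM in replicates 1 and 2, from expected counts of 13550 and 8482. The 95% exact Poisson intervals of those counts span 106 to 109 TPM and 115 to 119.5 TPM, for counting error only. Kit lay above 98.2% and 98.7% of nuclear protein coding genes. Its mean was 112 ± 6.69 TPM. The coding genes outside the lists whose levels were nearest to Kit in both libraries were Topbp1, Hcfc1 and Cdc42, at Euclidean distances of 0.04, 0.06 and 0.06 in log2(TPM + 1) over 2 libraries.

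Flt3 (ENSMUSG00000042817, chr5:147330741-147400489, minus strand), the receptor of lymphoid-primed progenitors, reached 58.6 and 42.9 TPM in replicates 1 and 2, from counts of 6853 and 3086. Counting error alone gives 57.2 to 60.03 TPM and 41.4 to 44.4 TPM, so the libraries differed by more than counting error. The intervals of Kit, Pdgfrb and Csf1r likewise did not overlap between the libraries. The mean was 50.8 ± 11.1 TPM, and both libraries lay below either Kit value. Mrpl52, Akap9 and Rin3 were the nearest coding genes in level, at distances of 0.04, 0.04 and 0.05. The antisense gene Gm26597, which overlaps the start of Flt3 over 936 bases on the opposite strand, stood at 5.94 and 2.17 TPM in replicates 1 and 2. The strand setting of the counting is unknown here, so reads in that overlap cannot be told apart.

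Pdgfrb (ENSMUSG00000024620, chr18:61045150-61085061, plus strand), a receptor of pericytes and other mesenchymal cells, was measured at 4.52 and 5.76 TPM in replicates 1 and 2, from counts of 767 and 552. Its intervals of counting error were 4.21 to 4.85 TPM and 5.29 to 6.26 TPM. Markers of stromal cells and pericytes were all but absent beside it. None of 10 was detected in both libraries, against 45.5% of nuclear protein coding genes, and 9 had no count in either (Cxcl12, Lepr and Col1a1 among them). The list summed to 0 and 0.20 TPM in replicates 1 and 2, all of it from Col1a2. Pdgfrb counts were present in both libraries with the listed stromal markers at or near 0. The part of stromal cells and pericytes in the Pdgfrb level was not tested.

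Csf1r (ENSMUSG00000024621, chr18:61100598-61132149, plus strand), the receptor for macrophage colony-stimulating factor, was lowest of the detected receptors, at 3.37 and 1.81 TPM in replicates 1 and 2 (counts of 478 and 150; 2.59 ± 1.10 TPM). Counting error spans 3.07 to 3.69 TPM and 1.53 to 2.12 TPM. It lies 15.5 kb downstream of Pdgfrb on the same strand, and the pair differed in which library was higher. Among 10 monocyte and macrophage markers, 2 were detected in both libraries, against 45.5% of nuclear protein coding genes. These were Cd68 (5.27 ± 0.28 TPM) and Ccr2 (1.72 ± 0.54 TPM), and Cd163 stood at 1.16 and 0.12 TPM in replicates 1 and 2. The list summed to 8.73 and 7.11 TPM in replicates 1 and 2, with the complement genes C1qa and C1qb at 0 and the macrophage gene Adgre1 at 0 and 0.04 TPM. The part of such cells in the Csf1r level was not tested, and in a pool fewer cells of a type and less RNA per cell cannot be told apart.

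Pdgfra (ENSMUSG00000029231, chr5:75152292-75198215, plus strand), which ends 376.7 kb before the start of Kit, had no count in either library. A count of 0 allows up to 0.0145 and 0.0257 TPM in replicates 1 and 2 (3 counts per library, for counting error only), and the deposited credibility intervals run up to 0.0225 and 0.0389 TPM. Absence in a pool of 100 cells is less firm than these limits, since of 1640 nuclear coding genes with 1 to 3 TPM in replicate 2, 26.1% lacked any count in replicate 1 (95% exact binomial interval 24.0 to 28.3%). In the other direction the share was 2.58%, so the library with the higher total count had the larger share of missing genes.

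Kitl (ENSMUSG00000019966, chr10:100015630-100100416, plus strand), which encodes stem cell factor, likewise had no count on any of its 3 deposited transcripts, which allows up to 0.0389 and 0.0690 TPM in replicates 1 and 2 by counting error alone. The deposited credibility intervals are wider and run up to 0.208 and 0.363 TPM. Against the floor of 3 counts per library Kit stood at least 2765-fold above its ligand in replicate 1 and at least 1696-fold in replicate 2. Against the upper ends of the deposited intervals it stood 516-fold and 322-fold above.

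Flt3l, which encodes the Flt3 ligand, could be followed only in part. Its gene in the GENCODE M21 annotation (ENSMUSG00000110206, chr7:45129788-45136432, minus strand) is not among the deposited identifiers. The tables, made with release M4, hold its transcript Flt3l-201 under ENSMUSG00000089989, an identifier that M21 gives to Gm45713, which runs from Flt3l into the ribosomal protein gene Rpl13a. Of the 9 transcripts of that entry, 8 are not in M21 and carry no name here. The entry as a whole stood at 36.3 and 15.3 TPM in replicates 1 and 2 (counts of 1557 and 322; 25.8 ± 14.9 TPM). Flt3l-201 itself was assigned 0 counts in replicate 1 and 14.8 counts, or 0.86 TPM, in replicate 2. The authors' credibility interval for it ran up to 0.18 and 1.43 TPM in replicates 1 and 2. Which of the other 8 transcripts belong to Flt3l was not settled by the sources used here, so no single level is given for the ligand.

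The other ligands of these receptors were low, with 0 of 6 detected in both libraries, against 45.5% of nuclear protein coding genes. Csf1, which encodes macrophage colony-stimulating factor, had 0.87 and 1.59 TPM in replicates 1 and 2. Among the Pdgf ligands, Pdgfa had 1.37 and 0.33 TPM in replicates 1 and 2, Pdgfd had 0 and 2.39 TPM, Pdgfb had 0.01 and 0.36 TPM, and Pdgfc had no count. Il34, which encodes the alternative ligand of Csf1r, had no count either. Of these, Csf1 and Pdgfd passed detection in replicate 2 alone and Pdgfa in replicate 1 alone.

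Ratios within a library, in which scaling to depth cancels, set the receptors in a fixed order (pseudocount 0.1 TPM). Kit exceeded Flt3 by 1.83-fold in replicate 1 and 2.72-fold in replicate 2, a log2 ratio of 1.16 ± 0.40. Against Pdgfrb, Kit was 23.3-fold higher in replicate 1 and 20.0-fold in replicate 2 (log2 ratio 4.43 ± 0.16), the steadiest of the ratios. Kit exceeded Csf1r by 31.0-fold in replicate 1 and 61.3-fold in replicate 2. Flt3 exceeded Pdgfrb by 12.7-fold and 7.33-fold, and Csf1r by 16.9-fold and 22.5-fold, in replicates 1 and 2. Csf1r lay below Pdgfrb in both libraries, at 0.751 and 0.326 of its level, but that log2 ratio of -1.02 ± 0.85 was close to its spread. The order Kit, Flt3, Pdgfrb, Csf1r and Pdgfra was the same in both libraries, and no neighbours in it overlapped between libraries.

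Receptor and ligand could be set against each other in a few further pairs. Flt3 stood 1.61-fold above the entry that holds Flt3l-201 in replicate 1 and 2.80-fold above it in replicate 2 (log2 ratio 1.09 ± 0.56). That value cannot be read as a ratio to the ligand. Flt3l-201 held 0% and 5.65% of the entry's TPM in replicates 1 and 2, and the other 8 transcripts are not assigned to Flt3l here. Csf1r stood 3.58-fold above Csf1 in replicate 1 and 1.13-fold in replicate 2, a log2 ratio of 1.01 ± 1.18 that did not exceed its spread. Pdgfrb exceeded Pdgfa by 3.14-fold in replicate 1 and 13.6-fold in replicate 2.

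**Figure D2:**
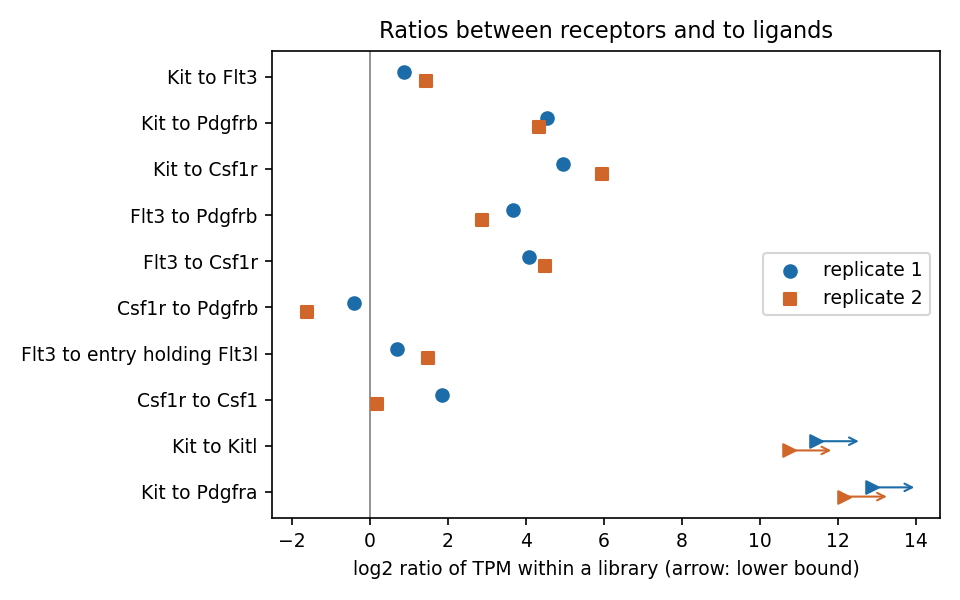
Log2 ratio of TPM within each library (circles replicate 1, squares replicate 2; triangles with arrows are lower bounds against 3 counts, for counting error only). Kit lies above Flt3 in both libraries, at 0.87 and 1.45, Csf1r lies below Pdgfrb, and the bounds of Kit against Kitl start at 11.4 and 10.7.

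The libraries split the 2 coding forms of Kit unequally, although the level of the gene was close in both. Kit-201 and Kit-204 (both with 21 exons) differ by a 12-base insert at the end of exon 9, chr5:75639147-75639158, and by 39 bases at the start of exon 1 that Kit-204 alone carries. The insert adds 4 residues just outside the membrane, and forms with and without it are known from mouse and human to differ in the strength of signalling. The boundary of exons 9 and 10 is shown because it carries the difference, with the insert in capitals (sequences of GENCODE M21, build GRCm38, plus strand):
Kit-201: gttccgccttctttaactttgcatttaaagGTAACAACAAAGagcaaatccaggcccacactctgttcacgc
Kit-204: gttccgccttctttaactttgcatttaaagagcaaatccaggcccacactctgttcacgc

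Kit-204, without the insert, held 73.8% of Kit TPM in replicate 1 and 45.4% in replicate 2. Kit-201, with it, held 0.91% in replicate 1 and 31.0% in replicate 2, from 159.8 and 3343 expected counts. Of the TPM of these coding forms together, the insert form made up 1.22% in replicate 1 and 40.6% in replicate 2 (20.9 ± 27.8%). The deposited credibility intervals of Kit-201 did not overlap, at 0.32 to 3.10 TPM in replicate 1 and 27.1 to 42.0 TPM in replicate 2. The libraries thus gave close levels of Kit and unlike estimates of the insert share, which rest on reads that touch those 12 and 39 bases, since the forms are otherwise identical. The number of such reads is not in the tables, and with 2 libraries the difference was not tested. The neutrophil markers also stood higher in replicate 2. Of the 12862 genes detected in at least 1 library, 1802 were over 2-fold higher in replicate 2 and 1683 in replicate 1. The part of these differences in the insert share was not tested.

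The remaining Kit signal lay on short models with a retained intron, Kit-206 (13.3% in replicate 1 and 10.4% in replicate 2), Kit-205 (4.77% and 7.46%) and Kit-203 (7.25% and 3.69%), with 1 further model under 5% on average. Coding transcripts held 75.5 ± 1.16% of Kit TPM but 97.4% of its counts in replicate 1 and 97.5% in replicate 2, as the retained-intron models are only 354 to 842 bases long and TPM divides by length. On coding transcripts alone Kit stood at 84.8 ± 6.35 TPM.

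Flt3 signal was shared between its coding transcript and a shortened one. Flt3-201, the coding form with 24 exons, held 63.4% of Flt3 TPM in replicate 1 and 47.5% in replicate 2. Flt3-202, annotated as a processed transcript with no coding sequence, held 36.6% and 30.5%. It shares the first 9 exons (1432 bases) and then ends in a 2519-base exon of its own, chr5:147362557-147365075, so it lacks the 15 later exons of Flt3-201, among them those that encode the membrane span and the kinase. The point where they part is shown, with the last shared exon in lower case and the next exon in capitals (GENCODE M21, GRCm38, minus strand):
Flt3-201: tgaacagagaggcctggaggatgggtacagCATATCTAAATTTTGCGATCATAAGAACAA
Flt3-202: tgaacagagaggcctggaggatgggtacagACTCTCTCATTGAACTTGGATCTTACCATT

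The remaining deposited transcript of Flt3, absent from M21 and so without a name or structure here, held 0.08% in replicate 1 and 22.1% in replicate 2. Whether it codes for protein is unknown here. Transcripts annotated as coding amounted to 37.2 and 20.4 TPM of Flt3 in replicates 1 and 2 (28.8 ± 11.9 TPM), and with the unnamed transcript counted as coding the values were 37.2 and 29.8 TPM. The log2 ratio of coding Kit to coding Flt3 was 1.62 without the unnamed transcript and 1.34 with it, against 1.16 on all transcripts.

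Csf1r signal fell on Csf1r-202 (80.9% in replicate 1 and 100% in replicate 2) rather than Csf1r-201 (19.1% and 0%). These coding transcripts differ in their first exons and in the length of the last one. Csf1r-202 runs on into Hmgxb3, a gene on the opposite strand, and 873 of its 4701 exon bases (18.6%) lie in Hmgxb3 exons, whereas Csf1r-201 shares none. Hmgxb3 stood at 10.9 and 11.5 TPM in replicates 1 and 2, above Csf1r in both, and its part in the Csf1r counts was not tested. Csf1r-201, which is free of that overlap, had 77.3 counts in replicate 1 and 0 in replicate 2. Pdgfrb signal was assigned almost wholly to Pdgfrb-201, at 100% in replicate 1 and 97.5% in replicate 2, but the deposited posterior means gave it 76.5% and 95.3%.

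**Figure D3:**
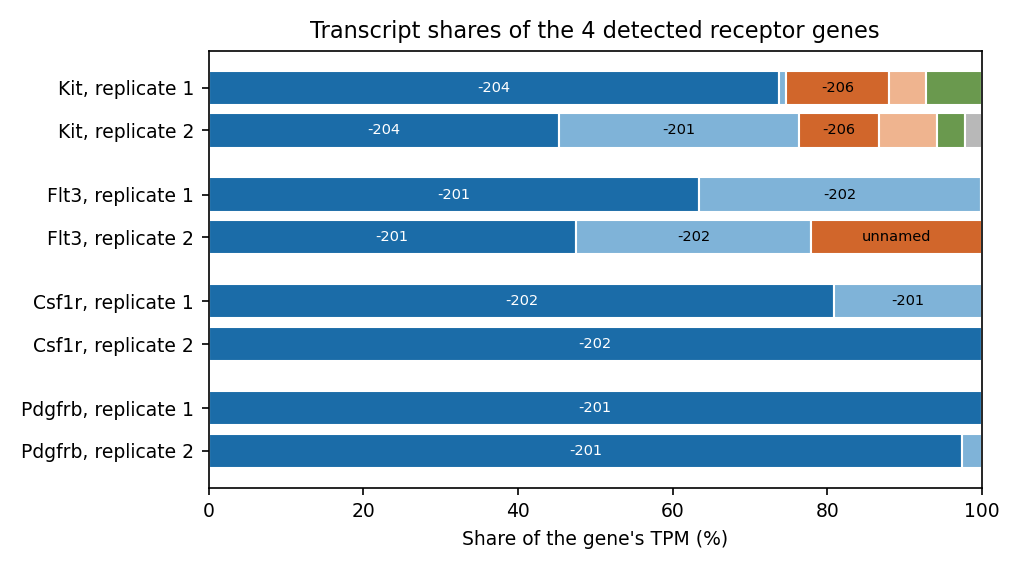
Share of each detected receptor gene's TPM (%) carried by its transcripts, with 1 bar per library and the transcript number inside segments over 9%. For Kit the light blue segment is the insert form Kit-201, 0.91% in replicate 1 and 31.0% in replicate 2, and the narrow segments to the right of Kit-206 are Kit-205, Kit-203 and Kit-202.

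Among 58 receptor tyrosine kinase genes, Kit ranked 1 and Flt3 ranked 2 in both libraries. The class III genes held 63.6% of the summed TPM of all 58 in replicate 1 and 65.0% in replicate 2, with Kit alone at 39.3% and 45.4%. Of the 53 kinases outside the class, 9 were detected in both libraries (45.5% over nuclear protein coding genes) and 24 had no count in either. They were led by the insulin-like growth factor receptor gene Igf1r (35.0 ± 10.1 TPM), the insulin receptor gene Insr (15.3 ± 3.83 TPM), the endothelial and stem cell receptor gene Tie1 (12.0 ± 1.15 TPM), Lmtk2 (9.95 ± 0.59 TPM), the fibroblast growth factor receptor gene Fgfr1 (4.30 ± 1.44 TPM) and the Wnt receptor gene Ryk (3.12 ± 1.90 TPM). The highest Igf1r value, 42.2 TPM in replicate 1, lay just under the lowest Flt3 value, 42.9 TPM in replicate 2. Pdgfrb ranked 7 in both libraries, directly below Lmtk2. Csf1r ranked 9 in replicate 1 and 13 in replicate 2, among genes such as Epha7, Ptk7 and Tek whose ranges over the libraries overlapped its own.

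**Figure D4:**
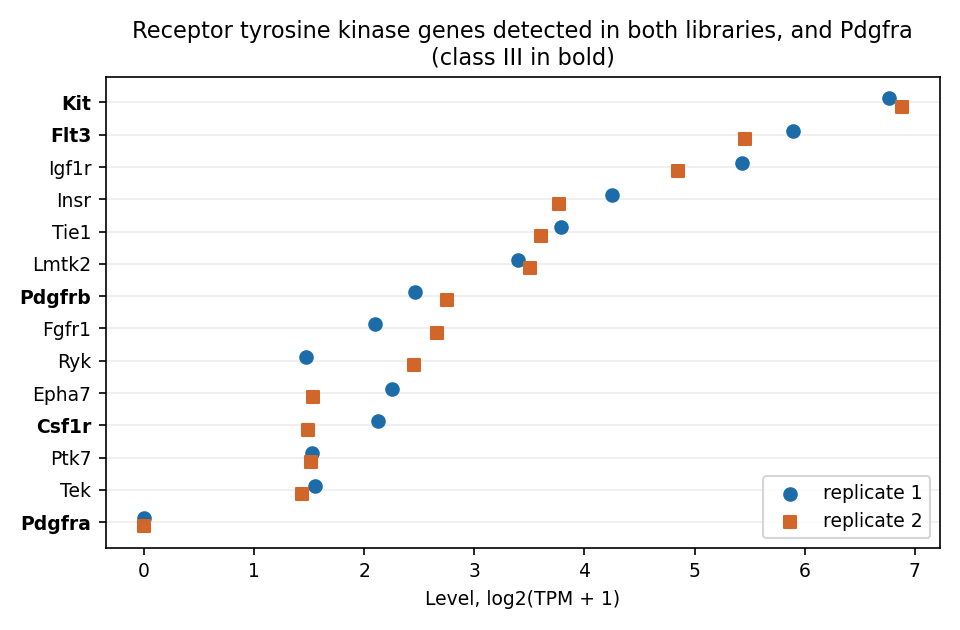
Level on the log2(TPM + 1) axis of the receptor tyrosine kinase genes detected in both libraries, with Pdgfra added (circles replicate 1, squares replicate 2; class III in bold). Kit and Flt3 lie above all others in both libraries, Pdgfrb and Csf1r lie among the low kinases, and Pdgfra lies at 0.

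Genes that act downstream of these receptors were widely detected, where 45.5% of nuclear protein coding genes were detected in both libraries. All 15 adaptor and docking genes were detected in both libraries, at median levels of 13.9 and 10.9 TPM in replicates 1 and 2. They were led by Sos2, an exchange factor for Ras (58.7 ± 27.8 TPM), Shc1 (49.1 ± 8.88 TPM), Grb2, which links receptors to Sos proteins (31.0 ± 0.51 TPM), and Vav1 (22.6 ± 4.26 TPM). All 10 Ras and MAP kinase genes were detected, with medians of 23.9 and 23.3 TPM, among them the kinase genes Map2k2 (55.1 ± 2.06 TPM) and Araf (46.0 ± 8.12 TPM). For scale, the median over all nuclear protein coding genes was 0.19 and 1.02 TPM in replicates 1 and 2.

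Of the 19 kinases and lipid enzymes, 18 were detected in both libraries, with medians of 19.0 and 19.7 TPM in replicates 1 and 2. Pik3r1, the regulatory subunit of phosphatidylinositol 3-kinase, stood at 76.7 ± 29.9 TPM, the protein kinase B genes Akt1 at 64.3 ± 8.97 TPM and Akt2 at 49.2 ± 17.8 TPM, and the phospholipase gene Plcg2 at 34.0 ± 1.75 TPM. Genes that restrain these receptors were present alongside, 18 of 20 being detected in both libraries (medians of 11.0 and 13.6 TPM). Among the highest were the lipid phosphatase gene Inpp5d (73.5 ± 2.38 TPM), the phosphatase gene Ptpn6 (54.6 ± 22.9 TPM) and Cbl, a ubiquitin ligase that sends activated receptors for degradation (32.5 ± 4.91 TPM). Socs1 (1.65 and 0.10 TPM in replicates 1 and 2) and Cblc (no count) were not detected in both. Most genes of these lists act downstream of many receptors.

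**Figure D5:**
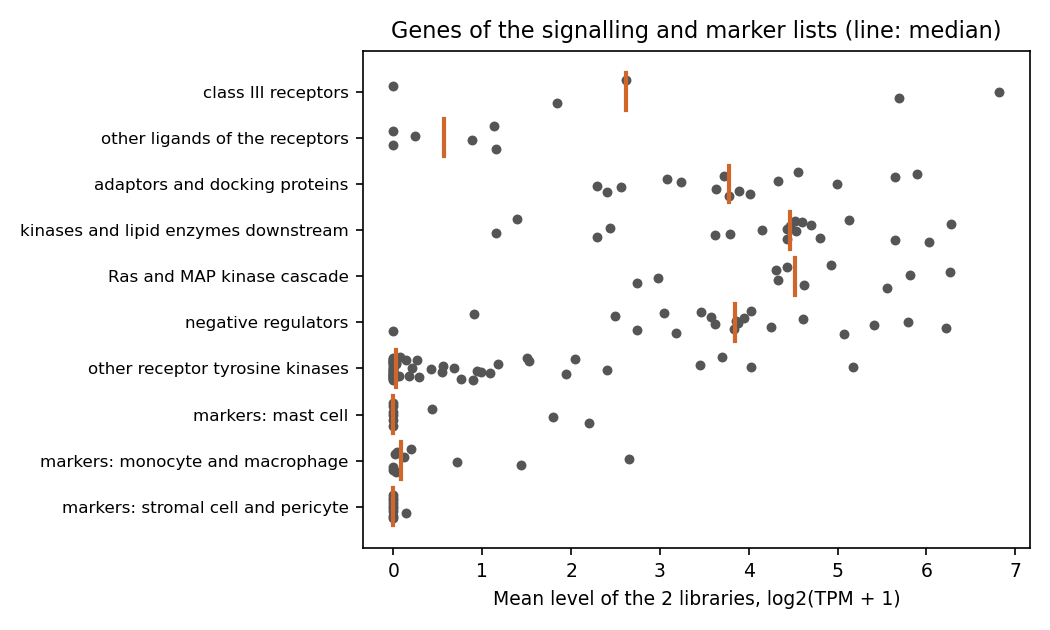
Mean level of the 2 libraries on the log2(TPM + 1) axis for each gene (points) of the receptor, ligand and signalling lists and of 3 marker lists, with an orange line at each list's median. The medians of the 4 downstream lists lie above that of the other receptor kinases, and the stromal list lies at 0 apart from Col1a2.

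None of the 4 detected members matched by symbol was over 2-fold apart between the libraries on the log2(TPM + 1) scale. Of the 12862 genes detected in at least 1 library, 27.1% were, and 4 genes are too few to tell from that share. The entry that holds Flt3l-201, not counted among the 4, was over 2-fold apart, at 36.3 and 15.3 TPM in replicates 1 and 2. Replicate 1 minus replicate 2 was -0.12 for Kit, 0.44 for Flt3, 0.64 for Csf1r and -0.29 for Pdgfrb, against a median of 0.14 over genes detected in both, so Kit and Pdgfrb lay on the other side of that shift from Flt3 and Csf1r. With TMM scaling the median was 0.01 and the members kept their signs, at -0.25, 0.22, 0.65 and -0.43 in the same order. In each of the 4 downstream lists, 2 genes were over 2-fold apart. Among them, Dok2, Sh2b2, Pik3ca, Sla2 and Socs1 were higher in replicate 1, and Mapk3 and Hras in replicate 2. These were named after their values were seen.

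Markers of other cell types were detected in part. Of 9 mast cell markers, beside Kit, 1 was detected in both libraries (Cpa3, 3.62 ± 0.80 TPM), Hdc had 0.01 and 4.96 TPM in replicates 1 and 2, Ms4a2 had 0 and 0.71 TPM, and the other 6, which include Fcer1a and Cma1, had no count. That list summed to 4.19 and 8.72 TPM in replicates 1 and 2, against a Kit level above 100 TPM in both. Of 9 dendritic cell markers, beside Flt3, 3 were detected in both, namely Bst2 (17.95 ± 6.70 TPM), Zbtb46 (13.5 ± 5.88 TPM) and Ccr9 (2.45 ± 0.57 TPM), with summed levels of 45.6 and 25.8 TPM, while Xcr1, Clec9a, Cd209a and Batf3 had no count. Of 9 endothelial markers 4 were detected in both libraries, led by Pecam1, Tie1 and Emcn (summed 52.6 and 38.9 TPM), with Cdh5, Cldn5 and Kdr at 0. Of 7 megakaryocyte markers 3 were, Itga2b, Vwf and Gp9 (summed 20.4 and 44.95 TPM), and of 7 T and NK cell markers 3 were, Nkg7, Ncr1 and Lck (summed 55.2 and 64.9 TPM). Over all nuclear protein coding genes 45.5% were detected in both libraries. The endothelial, megakaryocyte and T and NK cell counts lie near that share, so alone they say nothing of such cells. The part of any such cells in the levels of Kit and Flt3 was not tested.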

How the data were processed

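Total RNA was sequenced from 2 libraries of 1 group. The deposited tables hold expected counts (estimated, so not always whole), TPM and FPKM for each gene and transcript. The transcript tables also hold, as deposited, the percent of a gene's TPM that falls on each transcript (IsoPct). Headers have the layout of RSEM output, per the file headers, and the labels give mm10 and GENCODE M4. No source used here names the aligner, the program version or the strand setting. Rows that name no gene held 0.012% and 0.00719% of counts and were left out. Symbols matched 98.0% of 43346 mouse identifiers, and positions and transcript structures came from GENCODE M21 on the same build.

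No test between conditions was possible. Ratios used a pseudocount of 0.1 TPM, differences log2(TPM + 1), which understates those of low genes, and a count of 0 a limit of 3 counts. Intervals cover counting error only, as PCR reads are not independent molecules. The libraries were not duplicates of each other (chi-square per degree of freedom of 160 over 13428 genes). Expected counts were rounded for TMM factors (edgeR 4.0.16) and DESeq2 1.42.0 size factors, in R 4.3.3. All else was computed in Python 3.11.15 with pandas 2.3.3, scipy 1.17.1 and matplotlib 3.10.9. The difference step was tested on simulated data with counting error only, which checks the calculation and not the spread between these libraries.

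The members and lists were chosen with earlier results of these data known. Named are all members, their transcripts with a mean share of at least 5%, the 4 highest genes of each downstream list (6 of the other kinases, 3 of each marker list), all other ligands, and the 3 coding genes nearest to Kit and to Flt3. Some genes that this rule names are not reported here.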

Additional observations from a re-analysis of the deposited data

How the results depend on the processing

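Of 194 alternative values for 38 results, 159 stayed within the set margin, 35 moved and 0 reversed direction. The margin was the SD over the libraries for levels, ratios, shares and ranks, and a set fold for counts of genes. With 2 libraries, leaving either out always gives a level, mean ratio or share within that SD, so those values could not move. Only log2 ratios could change sign, so 0 reversals says nothing of the other results. At a threshold of 5 TPM, 2 members (Kit and Flt3) and 4 other receptor kinases were detected in both libraries. On transcripts annotated as coding the log2 ratio of Kit to Flt3 was 1.62, and 1.34 with the unnamed Flt3 transcript counted as coding. Coding Kit against all Flt3 gave 0.76. The ratio of Flt3 to the entry holding Flt3l was 2.70 on counts with no division by length. Against the transcript Flt3l-201 alone the mean was 7.34 for all Flt3 and 6.48 for coding Flt3, but that transcript has no count in replicate 1, so these means rest on the pseudocount and are not measured ratios. In replicate 2 the values were 5.48 and 4.41, from 14.8 counts. The log2 ratio of Kit to Kitl, whose bound by counting error alone was 10.73, was 8.33 against the upper end of the deposited credibility interval, 10.13 with a pseudocount of 0.1 TPM and no floor, 6.82 with 1 TPM, 13.45 with 0.01 TPM, 9.50 on FPKM, 9.87 on posterior means and 11.47 on counts with no division by length, so its size depends on the pseudocount and the limit used. The settings with the unnamed Flt3 transcript, with Flt3l-201 against all Flt3 and with the deposited interval were chosen after seeing the data. So was that with coding Kit against all Flt3. Of 87 alternatives for 27 single genes, ratios or transcripts, 18 moved.

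With either library left out, members detected numbered 4 to 4, other ligands 1 to 2, other receptor kinases 10 to 15, adaptors 15 to 15, downstream kinases and lipid enzymes 18 to 19, Ras and MAP kinase genes 10 to 10 and negative regulators 18 to 19. The log2 ratios ranged from 0.87 to 1.45 for Kit to Flt3, 0.69 to 1.49 for Flt3 to the Flt3l entry and 10.73 to 11.43 for Kit to Kitl. No paired analysis was possible because there is 1 group. What limits low genes was not tested: of genes at 1 to 3 TPM in the other library, 26.1% had no count in replicate 1, which has the higher total count, and 2.58% in replicate 2.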
